A study of Homo sapiens with 6 samples.

Results

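The retinoid genes followed here were ALDH1A1, ALDH1A2, ALDH1A3, DHRS3, RARA, RARB, RARG, RXRA and RXRB, 9 genes that make, recycle or sense retinoic acid. Every probe set that the platform annotation assigned to 1 of these genes and to no other was taken, which gave 24 of the 54613 probe sets tested. They were measured in MOLM-14, a human acute myeloid leukaemia cell line with an MLL-AF9 rearrangement, grown in medium with 10% fetal bovine serum. Of 6 wells, 3 received vehicle (DMSO) and 3 received 10 nM cortistatin A (CA), a natural steroid-like alkaloid, known as an inhibitor of CDK8 and CDK19 in the Mediator complex, for 24 h in both cases. The RNA of each well was hybridised to 1 Affymetrix U133 Plus array, and values are RMA intensities on the log2 scale. The genes were chosen by their roles and on their known values in this contrast of CA with DMSO. Their differences are therefore given as a description, and adjusted p-values say only where a probe set stands in a fit of the whole table.

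Retinol from the blood is oxidised to retinal, and the ALDH1A enzymes oxidise retinal irreversibly to retinoic acid. Retinoic acid binds the receptors RARA, RARB and RARG, which act on DNA as heterodimers with an RXR and exchange corepressors for coactivators when the ligand is bound. In myeloid cells retinoic acid favours maturation, and a fusion of RARA with PML causes acute promyelocytic leukaemia.

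After CA, ALDH1A3, which makes retinoic acid, was 2.72-fold higher, DHRS3, which returns retinal to retinol, 1.55-fold higher, and RXRA, the shared receptor partner, 1.25-fold and 1.33-fold higher on its 2 probe sets. These were the only called probe sets, 4 of 24 (16.7%), at an adjusted p under 0.05 by limma with Benjamini-Hochberg adjustment. Among all probe sets 5.01% were called, 3.0% higher and 2.01% lower. No member probe set was called lower, and 0 were lower at an unadjusted p under 0.05. The median difference was 0.03 over the 24 probe sets and -0.01 over all probe sets tested. The groups did not overlap in 6 member probe sets, against 25.1% of all probe sets. CA was above DMSO in 5 of them, against 12.1% of all probe sets, and below in 1, against 13.1%.

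**Figure D1:**
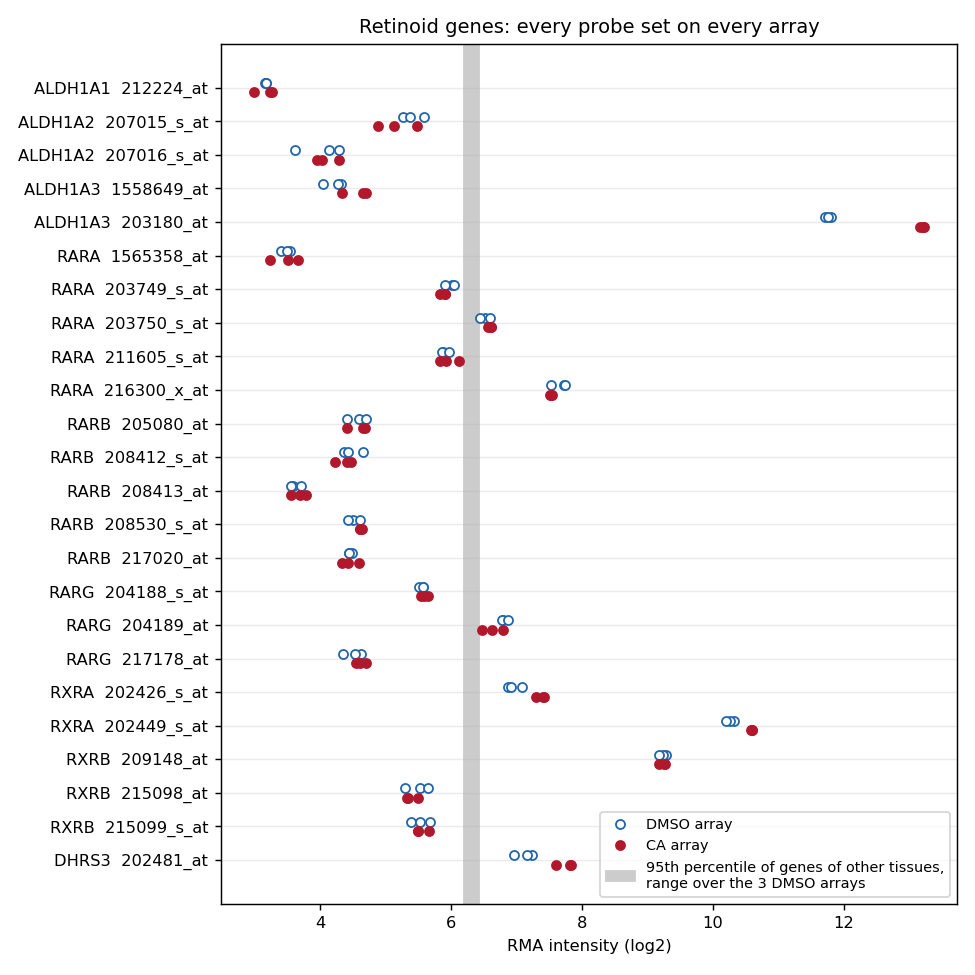
RMA intensity (log2) of the 24 probe sets on each of the 3 DMSO arrays (open blue) and 3 CA arrays (filled red). The grey band is the background level, 6.19 to 6.43 in the DMSO arrays, and 8 probe sets lie above it in DMSO.

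A background was needed to say which genes were expressed, since no detection calls were used here. It was the 95th percentile of 80 probe sets of 45 genes restricted to other tissues, such as liver, lens, heart and testis, and it lay at 6.19 to 6.43 in the DMSO arrays. In all 3 DMSO arrays 8 of the 24 member probe sets exceeded it, as did 37.9% of all probe sets. They belonged to 6 genes: ALDH1A3, DHRS3, RARG and RXRB with 1 each, and RARA and RXRA with 2 each. The other 16 were below it in every DMSO array, and ALDH1A1, ALDH1A2 and RARB had no probe set above it. Of the 8 probe sets above background 4 were called, beside 10.4% of all probe sets above background in DMSO. Probe sets differ in how strongly they bind their target, so levels of different probe sets are not compared.

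Promoter windows of ALDH1A3 and DHRS3, which were called higher, are shown beside one of RARB, which was not above background, because retinoic acid receptors bind direct repeats of a short half-site. RefSeq windows of GRCh38.p14 were matched for 9 of 9 genes, 19 in all, and searched over the 250 bases before the start on both strands for the half-sites AGGTCA or AGTTCA or GGGTCA or GGTTCA, which are in capitals. ALDH1A3 has 1 window, DHRS3 3 and RARB 4. The DHRS3 window shown is the most upstream, and the RARB window was picked because it holds a direct repeat, so the contrast between them comes from this choice. The ALDH1A3 window is chr15:100879581-100879830 (+), the DHRS3 window chr1:12618211-12618460 (-) and the RARB window chr3:25428013-25428262 (+).
ALDH1A3: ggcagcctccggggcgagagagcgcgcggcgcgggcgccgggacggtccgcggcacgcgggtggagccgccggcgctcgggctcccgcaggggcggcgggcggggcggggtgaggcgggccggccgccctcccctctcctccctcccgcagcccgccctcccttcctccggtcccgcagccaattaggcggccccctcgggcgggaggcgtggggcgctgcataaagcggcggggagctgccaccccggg
DHRS3: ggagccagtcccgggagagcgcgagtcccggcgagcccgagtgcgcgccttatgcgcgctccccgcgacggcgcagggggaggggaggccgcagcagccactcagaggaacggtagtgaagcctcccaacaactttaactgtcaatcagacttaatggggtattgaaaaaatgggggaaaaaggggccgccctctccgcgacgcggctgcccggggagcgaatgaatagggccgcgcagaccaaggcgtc
RARB: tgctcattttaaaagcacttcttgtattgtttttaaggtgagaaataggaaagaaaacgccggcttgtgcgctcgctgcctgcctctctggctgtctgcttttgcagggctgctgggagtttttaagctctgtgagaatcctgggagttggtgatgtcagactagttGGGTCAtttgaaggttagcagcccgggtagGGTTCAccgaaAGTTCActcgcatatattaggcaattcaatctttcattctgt
The RARB window holds the only DR5 repeat of the 19, 2 half-sites spaced by 5 bases, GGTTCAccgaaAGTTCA, at bases -53 to -37 from the start. A DR5 repeat was in 26 of 35116 promoter windows of the same length (0.074%). A repeat with a spacer of 1 base (DR1) or 2 bases (DR2) was in none of the 19 windows, and in 0.0968% and 0.0313% of all windows. At least 1 half-site was in 8 of the 19 windows, beside 33.8% of all windows. The ALDH1A3 window held none. Each of the 2 DHRS3 windows not shown held 1 half-site and the one shown 0, and the 2 RXRA windows held 0 and 1. The 3 RARB windows not shown held 0, 1 and 1. These are letters in a window of 250 bases and say nothing of binding.

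Among the enzymes that make retinoic acid, ALDH1A3 was the only one above background. Its probe set 203180_at was at 11.71, 11.81 and 11.76 in DMSO and at 13.17, 13.23 and 13.21 in CA. Every CA array was more than 1 log2 unit above every DMSO array. The means were 11.76 ± 0.05 and 13.20 ± 0.03 (SD, n = 3), a difference of 1.45 (SE 0.05, 95% confidence interval 1.33 to 1.56, limma adjusted p = 6.78e-05). By size it ranked 37 of 54613. It was called in 6 of 6 fits with 1 array left out, at differences of 1.42 to 1.47.

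The other ALDH1A3 probe set, 1558649_at, was designed on the sequence AK056534 and was not above background on any array. It was at 4.04, 4.32 and 4.26 in DMSO and at 4.65, 4.33 and 4.70 in CA. All CA values were higher, although the lowest, in CA replicate 2, lay close to DMSO replicate 2. The difference was 0.35 (SE 0.12, adjusted p = 0.169). ALDH1A3 thus rests on 1 of its 2 probe sets.

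ALDH1A1, the retinal dehydrogenase often used to mark stem cells, was at 3.15 to 3.17 in DMSO and at 2.99 to 3.25 in CA. Its difference was -0.00 (95% confidence interval -0.18 to 0.18). ALDH1A2, the main retinal dehydrogenase of the embryo, was at 5.26, 5.37 and 5.59 in DMSO and at 5.47, 4.88 and 5.13 in CA on probe set 207015_s_at. The groups overlapped, with a difference of -0.25 (SE 0.15, adjusted p = 0.468), and probe set 207016_s_at was at 0.08 (adjusted p = 0.874). Below background, these values bear little on the level of the transcripts.

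DHRS3 encodes a reductase that turns retinal back into retinol and so lowers the supply of retinoic acid, and it is itself known to be induced by retinoic acid. Its only probe set, 202481_at, was at 7.23, 6.95 and 7.17 in DMSO and at 7.60, 7.84 and 7.81 in CA. The groups did not overlap, and the 3 DMSO arrays spread over a range about as wide as the 3 CA arrays. The difference was 0.63 (SE 0.09, 95% confidence interval 0.41 to 0.85, limma adjusted p = 0.0132). The call was lost without CA replicate 2 (difference 0.59, adjusted p = 0.0546) and without CA replicate 3 (0.60, 0.0603).

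RXRA, the RXR of most tissues, had both of its probe sets above background and called. Probe set 202449_s_at was at 10.33, 10.27 and 10.21 in DMSO and at 10.59, 10.60 and 10.58 in CA. Probe set 202426_s_at was at 7.08, 6.87 and 6.92 in DMSO and at 7.42, 7.29 and 7.40 in CA. In both, each CA array was above each DMSO array. The differences were 0.32 (SE 0.05, 95% confidence interval 0.20 to 0.44, adjusted p = 0.0154) and 0.41 (SE 0.07, 0.25 to 0.58, adjusted p = 0.0214). The call of 202449_s_at was kept only without DMSO replicate 1, and adjusted p was 0.0595 to 0.0633 without DMSO replicate 2 or 3 or CA replicate 1, 2 or 3. That of 202426_s_at was lost without DMSO replicate 2 or 3 or CA replicate 1 or 3 (0.0768 to 0.0859). Over these fits the differences stayed between 0.29 and 0.35 for 202449_s_at and between 0.37 and 0.47 for 202426_s_at.

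RXRB, a second RXR, was above background on 1 of 3 probe sets. That probe set, 209148_at, was at 9.28, 9.24 and 9.18 in DMSO and at 9.28, 9.25 and 9.18 in CA. The values of the groups lay on top of each other, at a difference of 0.00 (95% confidence interval -0.12 to 0.13, adjusted p = 0.994). The difference between RXRA and RXRB in response was not tested. The other RXRB probe sets, 215098_at and 215099_s_at, were below background at -0.10 and 0.02.

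**Figure D2:**
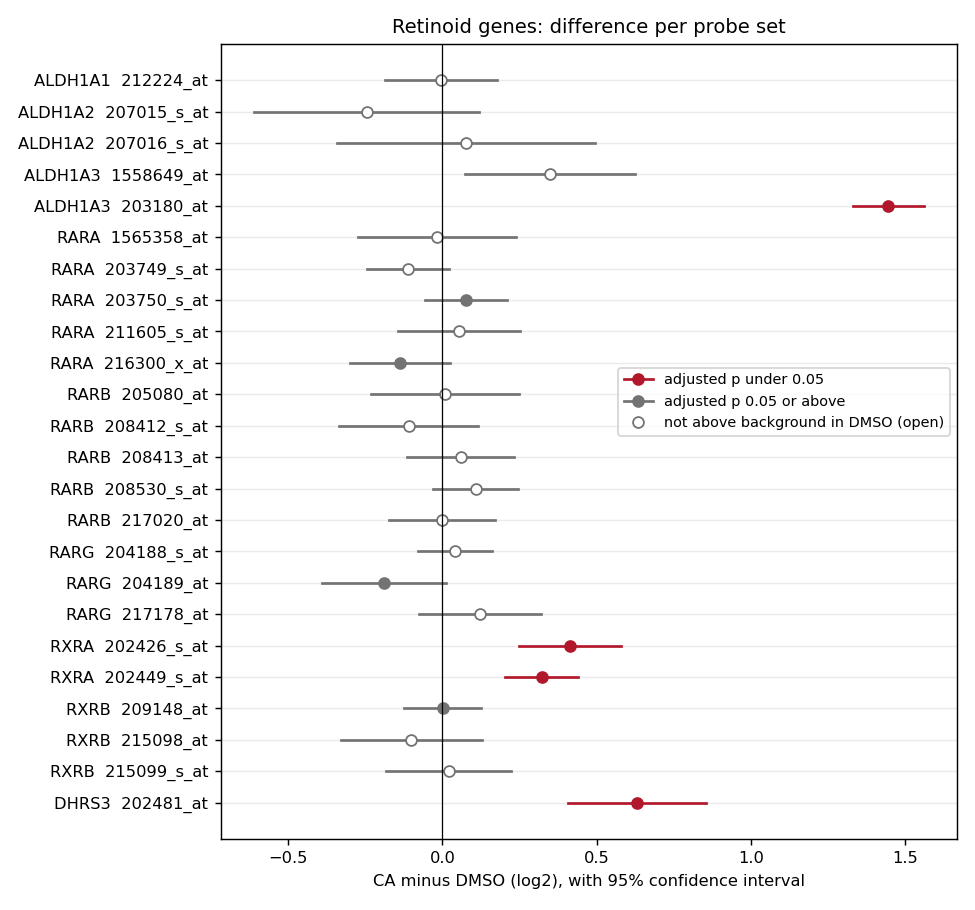
Difference between CA and DMSO (log2) for each of the 24 probe sets, with its 95% confidence interval. Red marks the 4 called probe sets, of ALDH1A3, RXRA and DHRS3, and open symbols the 16 not above background in DMSO.

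None of the 13 probe sets of the retinoic acid receptors was called. RARA, the main RAR of myeloid cells, was above background on 2 of 5 probe sets, which differed in opposite directions. Probe set 216300_x_at was at 7.72, 7.52 and 7.74 in DMSO and at 7.54, 7.52 and 7.51 in CA (difference -0.14, 95% confidence interval -0.30 to 0.02, adjusted p = 0.350). Probe set 203750_s_at was at 6.52, 6.59 and 6.43 in DMSO and at 6.56, 6.61 and 6.61 in CA (0.08, -0.05 to 0.21, adjusted p = 0.532). In both, the groups overlapped. Probe set 203749_s_at, just under background, was at 5.91 to 6.05 in DMSO and at 5.83 to 5.91 in CA, without overlap (-0.11, adjusted p = 0.357). The remaining RARA probe sets, 211605_s_at and 1565358_at, were at 0.06 and -0.02.

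RARG, a RAR of skin and of haematopoietic stem cells, was above background on 1 of 3 probe sets. Probe set 204189_at was at 6.79, 6.78 and 6.87 in DMSO and at 6.79, 6.47 and 6.62 in CA. CA replicate 1 lay among the DMSO values, and the difference was -0.19 (95% confidence interval -0.39 to 0.01, adjusted p = 0.3). The RARG probe sets 204188_s_at and 217178_at were below background, at 0.04 and 0.12.

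RARB, a RAR that is itself a classical target of retinoic acid through the repeat shown above, had 5 probe sets, and none was above background in DMSO or CA. Its probe sets 205080_at, 208412_s_at, 208413_at, 208530_s_at and 217020_at were at 3.61 to 4.57 on average in DMSO. Their differences were 0.01, -0.11, 0.06, 0.11 and -0.00, and the groups overlapped in all 5.

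Further genes of the pathway were followed with 1 probe set per gene, that of the highest mean, over 19775 genes. Of these genes 11.1% were called, 6.64% higher and 4.49% lower. The lists were written from general knowledge of the pathway with earlier results of these data known, and their counts describe the lists without testing them.

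Of 32 measured genes of retinoid uptake, storage, oxidation and breakdown, 4 were called higher and 0 lower (1 was lower at an unadjusted p under 0.05), at a median of -0.02. DHRS9, a dehydrogenase that oxidises retinol and steroids, rose 1.53-fold. It was at 10.85, 10.93 and 10.86 in DMSO and at 11.48, 11.48 and 11.51 in CA, with no overlap (0.61, SE 0.04, adjusted p = 3.41e-04), and 3 of its 3 probe sets were called. CYP26B1, which breaks down retinoic acid, rose 1.36-fold, from 6.40 ± 0.06 to 6.84 ± 0.08 (SD, n = 3; adjusted p = 0.00514), on 1 of 2 probe sets, whose mean differed by 0.26 (adjusted p = 0.0224). Both kept the call with any 1 of the 6 arrays left out. RDH10, which oxidises retinol in the embryo, was at 0.20 (adjusted p = 0.026), and DGAT1, which can esterify retinol, at 0.22 (adjusted p = 0.025). In the fit of all probe sets 0 of 4 probe sets of RDH10 and 0 of 1 of DGAT1 were called, and on the mean of its probe sets RDH10 was not called (0.19, adjusted p = 0.0571). RDH10 kept the call only without DMSO replicate 2 and DGAT1 only without DMSO replicate 1. With the _x_at and _s_at probe sets left out, DHRS9 and DGAT1 had no probe set to check. CYP26A1, the breakdown enzyme most strongly induced by retinoic acid, was not above background and was at -0.02 (adjusted p = 0.927). The binding proteins CRABP2 and FABP5 were at -0.04 and -0.06, uncalled. These last 3 genes were chosen after their values were seen.

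Of 17 measured receptors that include RXRG and partners or relatives of RXR, 2 were called higher and 0 lower (1 was lower at an unadjusted p under 0.05), at a median of 0.06. PPARA, a fatty acid receptor that pairs with RXR, rose 1.35-fold, from 7.16, 7.07 and 7.07 in DMSO to 7.52, 7.57 and 7.51 in CA (0.43, SE 0.04, adjusted p = 0.00177). It was called on 3 of 9 probe sets, and the mean of all 9 differed by 0.23 (adjusted p = 0.0167). NR2F1, an orphan receptor that can compete for the same repeats, rose 1.29-fold, from 10.42 ± 0.07 to 10.80 ± 0.02 (SD, n = 3; adjusted p = 0.00418), on its 1 probe set. Both kept the call with any 1 of the 6 arrays left out. The vitamin D receptor VDR, chosen after its value was seen, was at -0.10 (adjusted p = 0.212).

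**Figure D3:**
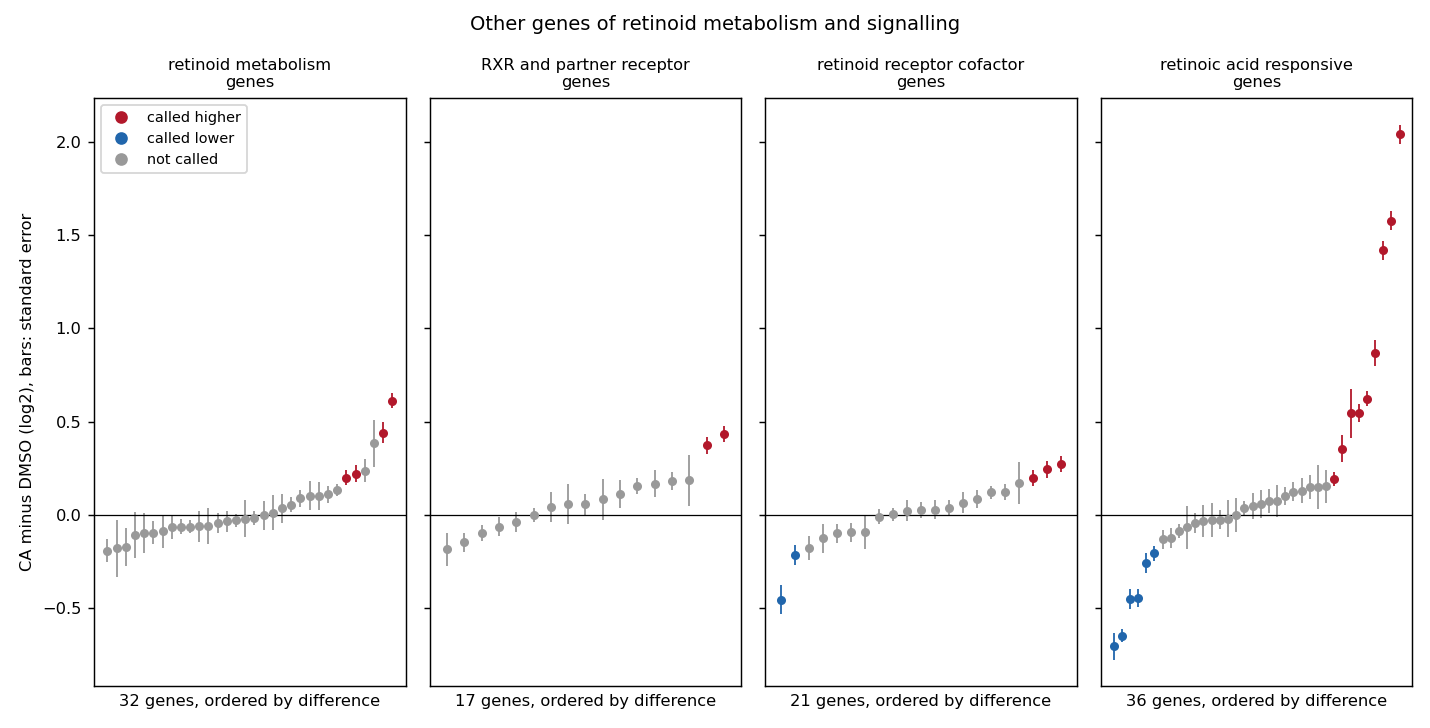
Difference between CA and DMSO (log2) with its standard error for the measured genes of 4 lists, each ordered from lowest to highest. Called genes are in colour: 4 higher in the metabolism list, 2 higher among receptors, 3 higher and 2 lower among cofactors, and 9 higher and 6 lower among responsive genes.

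Of 21 measured cofactors of these receptors, 3 were called higher and 2 lower, at a median of 0.03. The acetyltransferase KAT2B, a coactivator, fell 1.37-fold, from 7.05 ± 0.08 to 6.59 ± 0.14 (SD, n = 3; adjusted p = 0.0146), and kept the call only without DMSO replicate 1 or CA replicate 3. TNIP1, which binds liganded receptors and restrains NF-kB, rose 1.21-fold (adjusted p = 0.012), a call lost without DMSO replicate 3 (0.0538). TBL1X, a subunit of the corepressor complex, was at 0.24 (adjusted p = 0.0183), with the call kept only without DMSO replicate 3 or CA replicate 1. CDK7, a kinase that phosphorylates RARs, was at 0.20 and the corepressor LCOR at -0.22, and both lost the call with any 1 of the 6 arrays left out. On the mean of all their probe sets, TNIP1 (0.07, adjusted p = 0.534) and TBL1X (0.09, 0.292) were not called. With the _x_at and _s_at probe sets left out their direction turned, to -0.14 for TNIP1 (adjusted p = 0.359) and -0.07 for TBL1X (adjusted p = 0.69).

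Of 36 measured genes listed as responsive to retinoic acid, 9 were called higher and 6 lower, at a median of 0.05. Several of them, LTB, IRF1 and PRDM1 among them, were already known to differ in these data when the list was written. The cytokine LTB was at 2.04, the interferon regulatory factor IRF1 at 1.58 and the repressor PRDM1 at 1.42. ID1, an inhibitor of helix-loop-helix factors, rose from 6.20, 6.30 and 6.04 in DMSO to 7.08, 7.06 and 7.01 in CA (0.87, adjusted p = 7.57e-04), and was above background in 1 of 3 DMSO arrays and in all 3 CA arrays. Its relative ID2 fell from 10.66 ± 0.01 to 10.01 ± 0.03 (SD, n = 3; -0.65, adjusted p = 1.60e-04). PRAM1, an adaptor of myeloid cells, fell from 7.29, 7.36 and 7.21 in DMSO to 6.46, 6.70 and 6.58 in CA (-0.71, adjusted p = 0.00194). These 6 genes kept the call with any 1 of the 6 arrays left out. On the mean of all their probe sets LTB was at 1.09 (adjusted p = 3.77e-05) and PRDM1 at 0.77 (0.00178). With the _x_at and _s_at probe sets left out, which can match several genes or transcripts, LTB was at 0.13 (adjusted p = 0.403), and the counts of the list were 2 higher and 2 lower. ID1, ID2 and the called genes CD38, ICAM1, CDKN1A, DOK1, RET and SLC2A3 had only _x_at or _s_at probe sets. They dropped out of these counts and could not be checked in this way. TGM2 and RARRES1, widely used reporters of retinoic acid picked with their values in view, were not above background in DMSO, at -0.07 and 0.05.

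The genes with values nearest to those of ALDH1A3 over the 6 arrays, each taken relative to its DMSO mean, were PRDM1, ACP3, TYRP1, GPR183 and GK3. Their root mean square differences from ALDH1A3 were 0.06, 0.06, 0.07, 0.08 and 0.09 on the log2 scale. The likeness is mostly that of a rise of the same size, at 1.42, 1.37, 1.41, 1.54 and 1.52.

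Arrays of a group correlated at 0.998 across probe sets and arrays of different groups at 0.996 to 0.997. Of 11 myeloid markers 9 were measured and 8 were above background in DMSO, the exception being SPI1. Their summed log2 level was 80.1 to 80.5 in DMSO and 78.9 to 79.1 in CA, with 1 called higher (MEIS1) and 4 lower (PTPRC, ITGAM, CSF1R and CD4). Of 11 markers of lymphoid, epithelial, stromal and erythroid cells 9 were measured, 2 were above background (COL1A1 and HBB) and 0 were called. Their summed level was 46.7 to 47.0 in DMSO and 47.2 to 47.9 in CA. RNA integrity, read as the signal at the 3' end minus that at the 5' end of GAPDH, was at 0.38 ± 0.02 for DMSO and at 0.48 ± 0.05 for CA (SD, n = 3; 2-sided exact permutation p = 0.1, the smallest that 3 against 3 arrays allow). The same measure of ACTB was 2.27 ± 0.13 for DMSO and 2.38 ± 0.07 for CA (SD, n = 3; 2-sided exact permutation p = 0.3). The part of these shifts in the differences of the retinoid genes was not tested.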

How the data were processed

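The authors deposited a log2 intensity for each probe set. Per the submitters' processing notes it came from RMA in affy, with a version not given in the sources used here. RMA compresses large fold changes. Of 54675 probe sets, 62 controls were left out, 41091 had 1 gene symbol, 1801 several and 11721 were unnamed here.

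The contrast of CA with DMSO was fitted in R 4.3.3 with limma 3.58.1 (lmFit, eBayes, no covariates, 2-sided, 3 against 3 arrays) on all 54613 probe sets, or on 1 probe set per gene for the lists, with Benjamini-Hochberg adjustment and calls at 0.05. The steps were tested on simulated data. Per the labels' protocols RNA came from either a Qiagen column kit or TRIzol, without saying which sample had which, and its part in the differences was not tested. The p-values reflect the spread between wells, possibly technical, and precision is limited by the number of arrays. Arrays with the same replicate number did not deviate together (r of -0.01, 0.03 and -0.03), so the numbers were not used as pairs.

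Members, lists and named genes (all member probe sets, up to 6 called genes per list with the largest change, and the 5 profiles nearest to the called member of largest change) were chosen with earlier results of these data known. Markers, GAPDH signals and settings are described beside the results. Alternatives were filters at a mean log2 of 5 or 6, median centring, a repeated quantile normalization, array weights, a robust fit with an intensity trend, a replicate block, thresholds of 0.01 and 0.1, other rules for probe sets and for the background, and leaving out each array.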

Additional observations from a re-analysis of the deposited data

How the results depend on the processing

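The count of 4 member probe sets called higher was 4 with a mean log2 of at least 5 or 6, median centring, a repeated quantile normalization, array weights, a robust fit with an intensity trend or an adjusted p under 0.1, and 3 genes with 1 probe set per gene. It was 2 with a replicate block (RXRA 202449_s_at and DHRS3 at adjusted p of 0.0662 and 0.0693), 1 at an adjusted p under 0.01, 2 with _x_at and _s_at probe sets left out, which removes RXRA and leaves 12 member probe sets, and 1 to 4 with each array left out (1 without CA replicate 3, 4 without DMSO replicate 1). The count called lower was 0 in each of these. The filters at 5 and 6 left 14 and 8 member probe sets, and 13.8% and 22.6% of all probe sets kept were called. Of all probe sets tested, 5.01% were called in the main fit, 11.1% with the trend and 8.05% at an adjusted p under 0.1. The share was 2.03% with a replicate block, 1.77% at an adjusted p under 0.01 and 3.68% without _x_at or _s_at probe sets. With each array left out it was 2.27% to 2.43%. The count of member probe sets above background was 8 at the 90th percentile, at a fixed log2 of 6 and with any 1 DMSO array left out, and 10 against the median of the array.

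For the metabolism list, the count higher was 2 with a replicate block, at an adjusted p under 0.01 and without _x_at or _s_at probe sets, 2 to 3 with each array left out, and 7, with 1 lower, with an intensity trend. It was 6 at a mean log2 of at least 5 or 6 and at an adjusted p under 0.1. For the receptors it was 4 at a mean log2 of at least 5 or 6, with a trend and at an adjusted p under 0.1, and 1 was lower at a mean of at least 6 and with a trend. For the cofactors, 5 were higher at a mean of at least 6, 0 were higher and 1 lower with a replicate block and without _x_at or _s_at probe sets, 0 and 0 were called at an adjusted p under 0.01, 1 was lower with median centring, and 1 to 2 were higher and 0 to 1 lower with each array left out. The responsive genes were 7 higher and 4 lower with a replicate block, and 6 to 7 higher and 4 lower with each array left out. They fell to 2 higher and 2 lower without _x_at or _s_at probe sets. This setting left no probe set for CD38, ICAM1, RET, ID1, ID2, CDKN1A, SLC2A3 and DOK1, nor for the cofactor CDK7. It also left none for the called metabolism genes DHRS9 and DGAT1. LTB, ITGAM and HIC1 (adjusted p = 0.0531) were still measured in it and not called. Beyond these losses of genes, the cause of the shifts was not tested. Over all probe sets the calls numbered 2736, 1109 with a replicate block, 1239 to 1327 with each array left out, and 6073 with a trend. They numbered 4503 and 5440 with the filters at 5 and 6, and 4399 with the threshold of 0.1. Each higher list count given above thus came from a setting in which calls over all probe sets rose too.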

Other observations

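Further called genes of the list of retinoic acid responsive genes, chosen after their values were seen, included surface antigens of myeloid cells that moved in opposite directions. The ectoenzyme CD38, a classical target of retinoic acid in myeloid cells, rose 1.54-fold, from 8.61 ± 0.04 to 9.24 ± 0.04 (SD, n = 3; limma adjusted p = 3.41e-04), and the adhesion ligand ICAM1 rose 1.46-fold, from 7.91 ± 0.07 to 8.46 ± 0.03. The integrin chain ITGAM fell 1.37-fold, from 7.65 ± 0.07 to 7.20 ± 0.06, and the CDK inhibitor CDKN1A fell 1.36-fold. These 4 genes kept the call with any 1 of the 6 arrays left out. ICAM1 was called on 2 of 3 probe sets, and their mean differed by 0.36 (adjusted p = 0.0131). With _x_at and _s_at probe sets left out ITGAM was at -0.13 (adjusted p = 0.543), and CD38, ICAM1 and CDKN1A had no probe set to check. CEBPB (-0.26), DOK1 (-0.21), RET (0.19), SLC2A3 (0.35) and HIC1 (0.54, not above background) were called, and the calls were lost with at least 4 of the 6 arrays left out in turn.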
